A study of Bos taurus with 8 samples.

Results

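The unmodified bovine mammary epithelial cells of this study were described from the 2 arrays of its control group, out of 8 arrays in all. The arrays were picked by their labels: the 2 control arrays carry no shRNA, and the 6 others, which are not compared here, hold the same cells with 1 of 2 shRNAs against EEF1D (EEF1D-1357 or EEF1D-1893, 3 arrays each). The cells were primary cultures grown from tissue pieces of the mammary gland of a lactating Holstein cow, taken at the fifth passage. The labels do not say whether the 2 controls came from separate cultures, so a difference between them measures the spread between these 2 samples and may be technical. All cells came from 1 animal as far as the labels say, and the labels name no lactogenic hormone treatment.

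Total RNA was labelled with Cy3, a green dye, and hybridised to 1-colour Agilent arrays of 60-base probes. Mammary epithelium is built of 2 layers. Luminal cells line the ducts and alveoli, express the simple keratins KRT8, KRT18 and KRT19, and in lactation make the caseins, the whey proteins, lactose and milk fat under the control of prolactin acting through its receptor and STAT5. Basal or myoepithelial cells lie beneath them on the basement membrane, express KRT5 and KRT14 with contractile proteins such as smooth muscle actin, and squeeze the alveoli in response to oxytocin. Mammary epithelial cells grown on plastic are known to lose milk protein expression readily and to take on vimentin, an intermediate filament protein otherwise typical of mesenchymal cells.

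Genes were ranked by the mean of their log2 signals in the authors' normalized table over the 2 controls, with the brightest probe standing for the gene. A gene's percentile is its place in that ranking among the 16908 genes that could be named, with 100 at the top, and a gene was called detected where at least 1 of its probes was flagged well above background on both arrays. By that rule 11605 genes were detected, which is 68.6% of those measured. A further 1632 genes passed on 1 array only, or through different probes, and 3671 (21.7%) on neither. Under a stricter reading that asked for more than 50% of a gene's probes, 10024 genes or 59.3% were detected. The share of probes well above background was 71.5% in control 1 and 65.2% in control 2, and no probe was saturated. The lowest value in the table was 2.99 in control 1, and in control 2 it was 3.21, a value shared by 20.9% of that array's probes, so log2 values near 3 carry no order.

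A percentile is a place in a ranking of probes and not a number of transcripts, because probes differ in how brightly they report the same RNA. Among 6840 genes with 2 or more detected probes, the range between the probes of 1 gene had a median of 3.02 on the log2 scale (quartiles 1.52 and 4.67), which is 8.08-fold. A gene's percentile also went with its number of probes. The median percentile was 31.6 for the 6633 genes with 1 probe and 58.4 for the 8433 genes with 2 or 3. For the 1842 genes with 4 or more it was 72.8. The reason for this was not tested. Probe position went with signal too. In 5506 cases a gene had at least 2 detected probes that lay apart on 1 RefSeq transcript, and some genes entered more than once. The probe nearest the 3′ end was brighter than the 5′-most in 4566 of these cases (82.9%), with a median difference of 2.44 on the log2 scale. The labelling kits named in the labels copy RNA from its poly(A) tail. Whether that accounts for the difference was not tested.

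**Figure D1:**
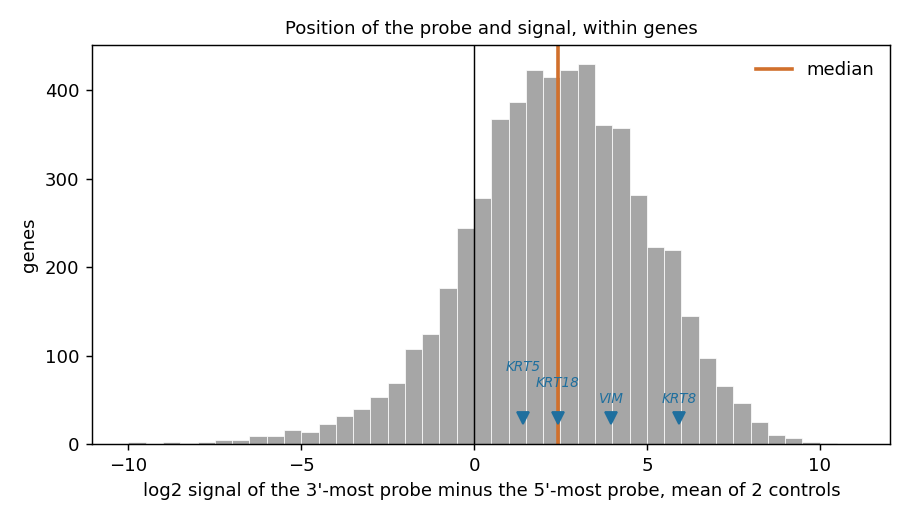
Within-gene difference in log2 signal between the 3′-most and the 5′-most detected probe, mean of the 2 controls, over 5506 cases (x axis, log2). The y axis, labelled genes, is the number of cases, in which some genes entered more than once. The orange line marks the median of 2.44, and the triangles mark KRT5 at 1.43, KRT18 at 2.42, VIM at 3.96 and KRT8 at 5.93, all to the right of 0.

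The 2 controls ranked genes alike. Pearson's r between them across genes was 0.975 and Spearman's rho 0.968, a description in which genes are not independent replicates. Of the 100 genes with the highest signal in each control 84 were shared, and of the top 1000, 882 were shared.

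The 30 brightest genes included ribosomal proteins, actins and thymosins, respiratory chain subunits and KRT8. ITPR1, which encodes a calcium release channel of the endoplasmic reticulum, stood first with log2 signals of 19.09 in control 1 and 19.02 in control 2, but that place rested on 3 probes. These 3 overlapping probes read between 18.52 and 19.09, whereas the other 4 probes of the gene read between 4.11 and 12.75, so the rank is that of 1 cluster of probes. Behind it came FTH1, the ferritin heavy chain that stores iron (18.85 and 19.09), the actin-binding thymosins TMSB4X (18.91 in both controls) and TMSB10 (18.81 and 18.89), and S100A2, a calcium-binding protein known from basal epithelial cells (18.89 and 18.87).

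The 30 genes of highest mean signal included 14 ribosomal proteins written RPL, RPLP or RPS, from RPS3 (18.87 and 18.62) to RPL21 (18.52 and 18.55). RPS27A, which encodes a ribosomal protein made as a fusion with ubiquitin, owed its 18.74 and 18.71 to 1 of 2 probes. The cytoplasmic actins ACTG1 (18.71 and 18.75) and ACTB (18.70 and 18.43), the mitochondrially encoded respiratory chain subunits COX3 (18.64 and 18.78) and COX2 (18.52 and 18.72), and the glycolytic enzyme ENO1 (18.56 and 18.47) were also in this group. KRT8 (18.69 and 18.53), the membrane-binding annexin ANXA2 (18.63 and 18.59) and the calpain small subunit CAPNS1 (18.73 and 18.35) completed the well-known names. CCND2, a D-type cyclin, read 18.30 and 18.81 on its 1 probe, and LOC514876, which has no gene symbol, read 18.44 and 18.76. None of these 30 genes differed between the controls by as much as 2-fold.

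The label of the cells was checked against 7 markers, whose probes were read one by one. The probes of 6 of them were well above background on both arrays without exception: 4 of KRT8, 3 of KRT18, 2 each of KRT5 and KRT14, 3 of CDH1 and 5 of VIM. The seventh, the casein gene CSN2, was split between its probes. To show what was hybridised, 1 probe from the coding part of each keratin and of vimentin is given in the order of luminal, basal and mesenchymal markers, 5′ to 3′ and all in lower case, with its place on build Btau_3.1. An interval of more than 60 bases means that the alignment is interrupted, as over an intron.
KRT8, chr5:30002293-30002931, plus strand: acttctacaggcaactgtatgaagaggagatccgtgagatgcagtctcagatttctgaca
KRT18, chr5:29956921-29957082, minus strand: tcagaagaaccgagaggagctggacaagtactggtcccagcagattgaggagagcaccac
KRT5, chr5:30269652-30269940, plus strand: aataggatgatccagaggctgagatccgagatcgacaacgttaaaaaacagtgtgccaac
KRT14, chr19:43151143-43151174, minus strand: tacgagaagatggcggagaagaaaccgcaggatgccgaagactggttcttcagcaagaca
VIM, chr13:31482880-31483759, plus strand: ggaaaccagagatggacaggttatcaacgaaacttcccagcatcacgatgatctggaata
The KRT14 probe was placed over 32 bases only, so its position within the gene is not settled.

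KRT8 and KRT18, the partner keratins of simple epithelia, were at percentiles 99.9 and 99.7. The KRT8 probe printed above read 15.86 in control 1 and 15.48 in control 2. From the 5′ to the 3′ end its 4 probes read 12.53, 14.79, 15.86 and 18.69 in control 1 and 12.82, 14.46, 15.48 and 18.53 in control 2. Each step toward the 3′ end was thus brighter on both arrays. The 3 probes of KRT18 gave the same order, with 16.18, 17.54 and 18.41 in control 1 and 15.66, 16.62 and 18.27 in control 2.

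KRT5, the type II keratin of basal cells, read 16.61 and 16.18 on the probe printed above and 17.99 and 17.65 on its second probe, which put it at percentile 99.5. Its partner KRT14 was the one marker on which the controls parted. One KRT14 probe read 15.52 in control 1 and 17.84 in control 2, a difference of -2.32 (control 1 minus control 2) on the log2 scale, while the coding probe read 14.94 and 14.67. The 2 probes of KRT14 therefore did not give the same order of the controls.

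The brightest probes of KRT8, KRT18 and KRT14 hold AATAAA, the hexamer that marks the end of a transcript for polyadenylation. A window of 30 bases from each is shown with the hexamer in capitals.
KRT8, from the probe at chr5:30005397-30005456: tgtaagcgtctttttcagAATAAAtccaat
KRT18, from the probe at chr5:29955922-29955981: gagcaggagatcAATAAAagttgagacatt
KRT14, from the probe at chr19:43151162-43151221: ccttgccccttccagcaatcAATAAAgctt
AATAAA was found in 9.35% of all 43653 probes and its reverse complement TTTATT in 3.46%. Among genes with more than 1 probe, AATAAA was in 14.7% of the brightest probes and in 5.91% of the others, and TTTATT in 4.49% and 2.85%. A match is a description of the probe's letters and not proof of a used site.

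**Figure D2:**
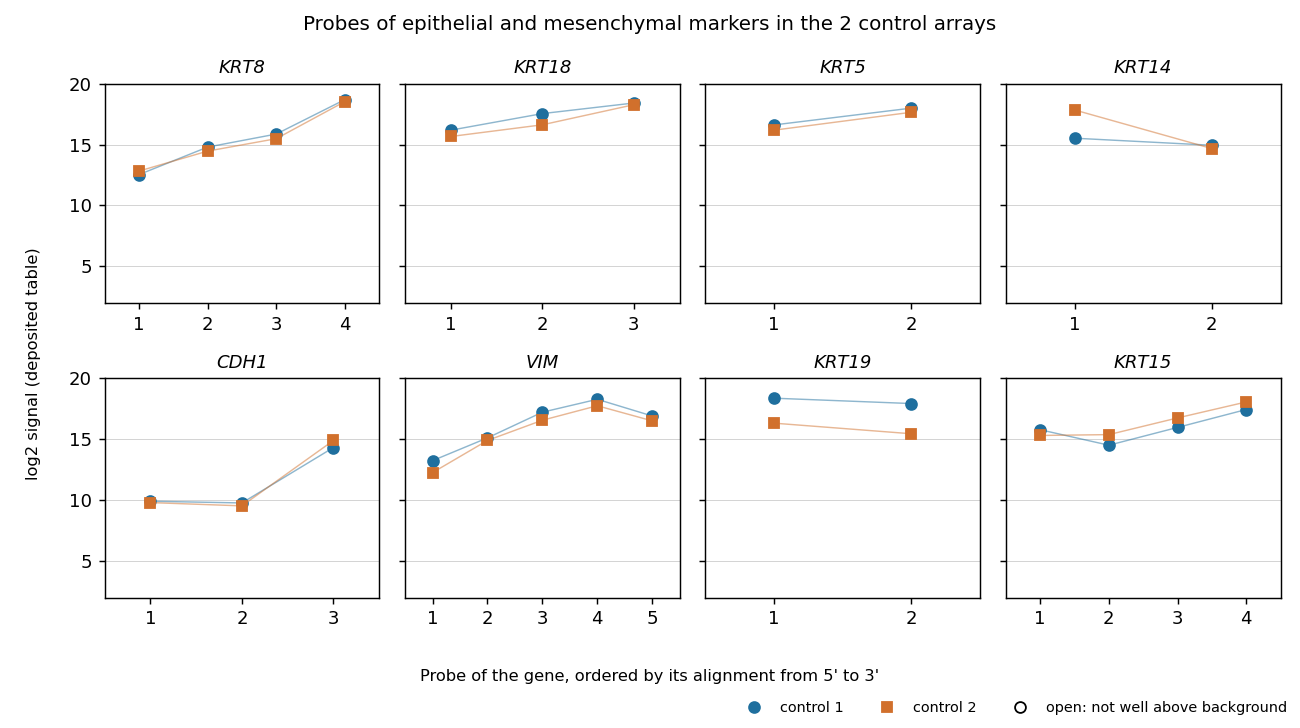
Log2 signal in the authors' normalized table (y axis) of every probe of 8 genes, ordered by alignment from 5′ to 3′ (x axis; for KRT14 the alignments overlap and the order is not settled). Circles are control 1 and squares control 2. KRT8 climbs from 12.53 to 18.69 in control 1, CDH1 has 2 probes near 10 and 1 near 15, and both probes of KRT19 and 1 of KRT14 show the controls more than 2-fold apart.

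The other simple keratins were high as well. KRT19 read 18.37 in control 1 and 16.32 in control 2 (percentile 99.1), and its second probe, at 17.93 and 15.45, showed the same order. KRT7 read 17.22 and 16.94, and KRT80 15.17 and 14.25. KRT23 stood in the middle of the range (9.73 and 9.91), and KRT20, a keratin of the gut lining, was at background with 3.06 and 3.88. All 4 basal layer keratins were detected with every probe: besides KRT5 and KRT14, KRT15 read 17.44 and 18.06 and KRT17 16.88 and 16.64. KRT6A, a keratin that basal cells switch on in wounds and in culture, read 17.59 and 17.85 (percentile 99.4) with all 3 probes detected, and its close relative KRT6C, with which it could share signal, read 7.19 and 5.81. Over the whole keratin family 23 of 50 genes were detected, a share below the 68.6% of all genes. Of the 50, 13 were in the top 25% of signal, a place held by 25% of all genes by construction. High signal was thus seen in some keratins and not over the family as a whole.

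Luminal markers were mostly high. Of 30 listed, 29 were measured and 26 detected, and 19 lay in the top 25% of signal, a place held by 25% of all genes by construction. Their median percentile was 82.9, against 50 over all genes. Next to KRT8 and KRT18 stood LGALS3, a sugar-binding lectin (17.47 and 17.78). CDH1, which encodes E-cadherin, the adhesion molecule of epithelia, was at percentile 93.0 by its 3′-most probe (14.32 and 14.90), yet its other probes read 9.91 and 9.80, and 9.77 and 9.53. Taking the median probe in place of the brightest left CDH1 at percentile 69.4. At background were KIT, the stem cell factor receptor (3.67 and 3.21), and PRLR, the prolactin receptor (3.61 and 3.21). ELF5, the transcription factor of milk-producing alveolar cells, read 5.97 and 3.21 and was well above background in control 1 only.

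Basal and myoepithelial markers were mostly high too. Of 29 measured, 28 were detected and 18 were in the top 25%, with a median percentile of 88.5. The order of the 2 lists was not settled: by the mean of a gene's probes the medians were 82.6 for luminal and 78.4 for basal markers, by the median probe 81.2 and 80.7, and in control 1 alone 86.9 and 86.6. Members of the anchoring machinery led: LAMB3, a chain of laminin-332 (17.92 and 17.57), and KRT5 and KRT15 as above, with CALD1, the actin-binding caldesmon (17.70 and 17.43). The contractile genes spread widely. ACTA2, smooth muscle actin, read 14.32 in control 1 and 15.87 in control 2 on its 1 probe, and TAGLN, transgelin, read 16.84 and 16.24. MYH11, the smooth muscle myosin heavy chain, was the member not detected (5.04 and 3.85, none of 4 probes on both arrays), and TP63, OXTR and THY1 were detected but lay at percentiles from 30.1 to 35.7. OXTR, the oxytocin receptor, read 6.20 and 6.45 and TP63, a transcription factor that defines basal cells, 5.76 and 7.27.

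Signal for both layers was therefore present in each control. These are bulk samples, in which few cells with much RNA and many cells with little cannot be told apart, so the array does not say whether the 2 sets of markers came from the same cells.

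Genes of cell contact and of the basement membrane followed. All 18 measured genes of adherens junctions and desmosomes were detected with more than 50% of their probes, and their median percentile was 88.3. JUP (plakoglobin, 15.94 and 15.80), CTNNA1 (15.66 and 15.88), CTNND1 (15.48 and 15.22) and DSP (desmoplakin, 15.11 and 15.18) led, and EVPL, envoplakin, was the lowest with 8.29 and 5.75. Tight junction genes were more mixed, with 18 of 25 detected (72.0%, against 68.6% of all genes) and a median percentile of 57.0. F11R, the junctional adhesion molecule A, read 15.21 and 14.70, CGN, cingulin, 13.91 and 13.79, and TJP3 14.02 and 12.68, with CLDN1 at 13.62 and 13.02. CLDN2, CLDN16 and CLDN17, claudins of leaky or kidney epithelia, were at background with no value above 3.43, and CLDN11 read 3.26 and 4.28.

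Of 21 measured laminin and basement membrane genes 18 were detected, at a median percentile of 70.4. LAMB3, given above, belongs to laminin-332, the laminin that basal keratinocytes and myoepithelial cells rest on. It stood with the proteoglycan perlecan, HSPG2 (16.35 and 16.63), and the hemidesmosomal collagen COL17A1 (14.74 and 15.95). LAMA2, a laminin chain of muscle and nerve, was at background (3.60 and 3.21). The collagen IV chains COL4A1 (5.32 and 6.08, 1 of 4 probes) and COL4A2 (6.80 and 4.04, not detected on both arrays) were low, as was NID1, the nidogen that links laminin to collagen IV (5.63 and 4.74, likewise). Among the integrins, the receptors for this matrix, ITGB4 (16.58 and 16.83), the hemidesmosome integrin, was at percentile 98.6, followed by ITGA3 (15.62 and 16.14), ITGB1 (14.71 and 16.08) and ITGA6 (13.53 and 14.12). The leukocyte integrins ITGA4, ITGAL and ITGAM were at background, between 3.18 and 4.54. Altogether 19 of 24 integrin genes were detected, at a median percentile of 52.9.

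The mesenchymal list held some of the brightest genes of all and some of the darkest. Of its 20 genes, 18 were detected and 9 were in the top 25%, while the median percentile was 57.7. VIM was at percentile 99.6; its 5 probes read, from 5′ to 3′, 13.24, 15.11, 17.22, 18.28 and 16.91 in control 1 and 12.26, 14.90, 16.56, 17.75 and 16.51 in control 2. FN1, fibronectin, read 17.80 and 17.90 with all 13 of its probes detected. SPARC, a matrix protein that is also on the basal list, read 17.52 and 17.50. Transcription factors of the list spread widely. PRRX1 read 12.38 and 11.86 on 1 of 2 probes (percentile 75.1) and FOXC2 8.77 and 7.13. ZEB2 (3.12 and 3.21) and TWIST2 (3.26 and 3.21) were at background on 1 probe each; SNAI2, TWIST1, SNAI1 and ZEB1 were detected between percentiles 39.0 and 55.8. Those detected were named after their values were seen.

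Genes of fibroblasts, which cultures from tissue pieces can carry along, had 15 of 21 detected (71.4%, against 68.6% of all genes) at a median percentile of 38.4, and 8 of 21 with more than 50% of their probes. PDPN, podoplanin (15.86 and 15.78), and the matrix cross-linking enzyme LOXL1 (13.77 and 13.33) were the only 2 in the top 25%, and MFAP5 (10.85 and 10.83) and COL1A1 (10.62 and 9.94) came next. The summed signal of the list on the linear scale was 81533 in control 1 and 78609 in control 2. PDGFRB, a receptor of fibroblasts and pericytes (3.44 and 3.21), TCF21 (3.29 and 3.69) and DDR2 (4.33 and 5.37) were at background.

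**Figure D3:**
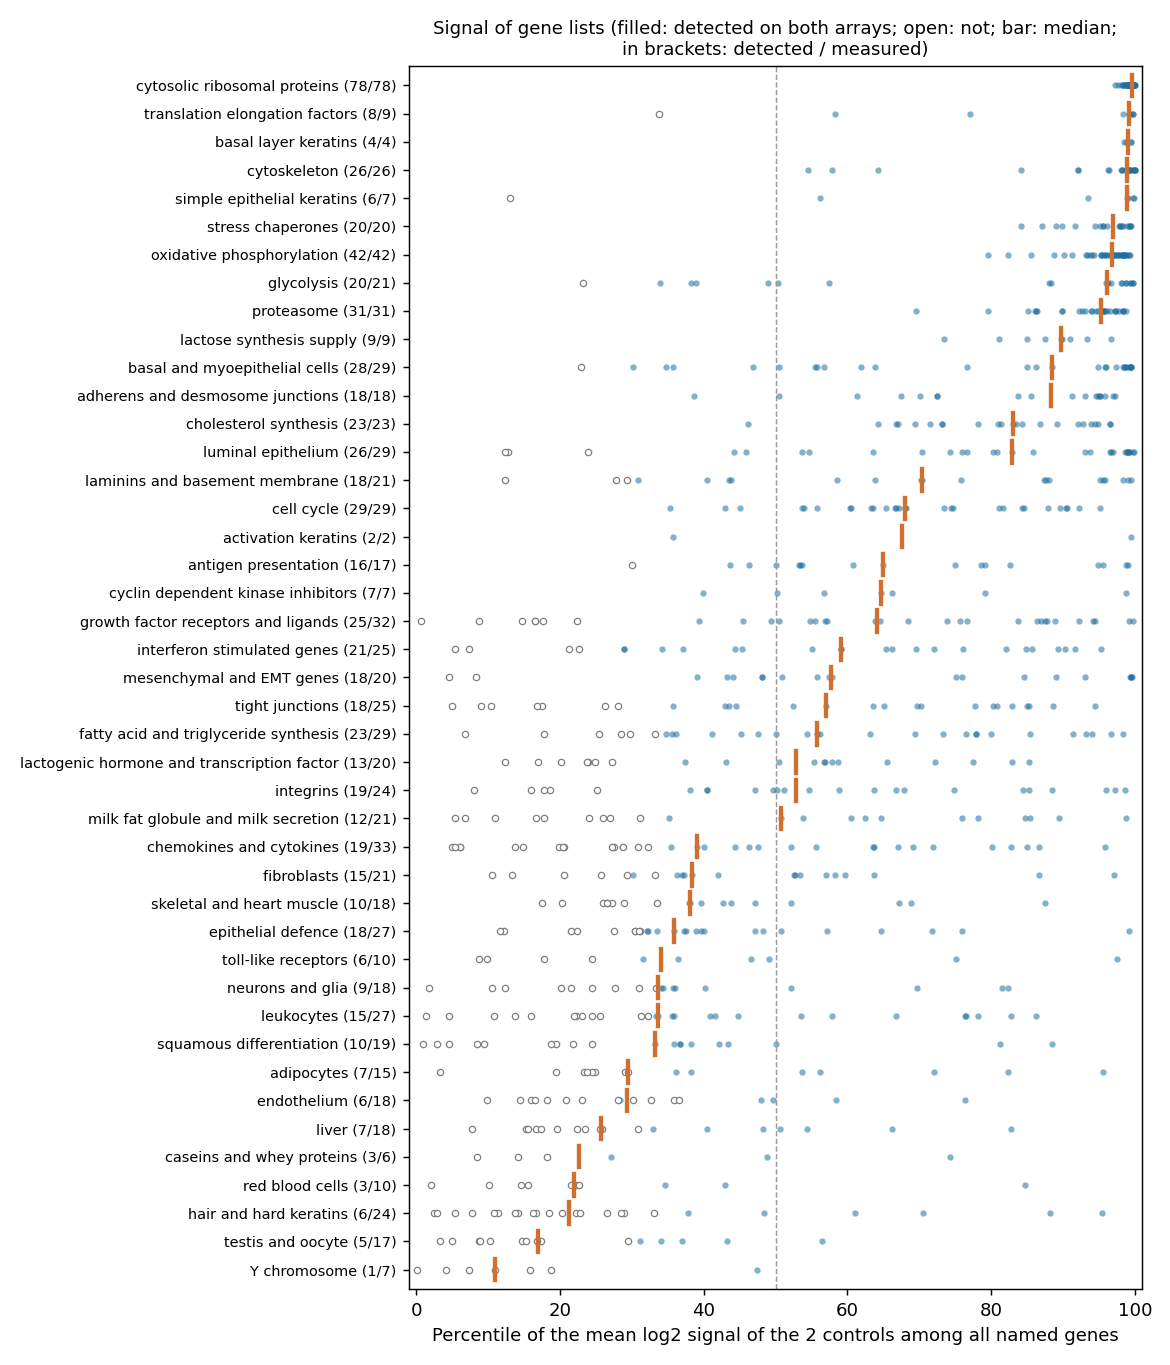
Percentile of the mean log2 signal of the 2 controls (x axis) for every measured member of 43 gene lists (y axis, sorted by their median), with filled points for genes detected on both arrays, open points for the others and an orange bar at the median; the dashed line marks 50. Ribosomal proteins sit at a median of 99.6 and basal layer keratins at 99.1, whereas caseins and whey proteins sit at 22.6 and Y chromosome genes at 10.9.

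Milk protein genes were near the other end of the ranking. The list of 4 caseins and 2 whey proteins had a median percentile of 22.6, none of the 6 was in the top 25%, and none was detected with more than 50% of its probes. CSN1S1, the alphaS1-casein, had 6 probes between 3.02 and 4.58 and CSN1S2, the alphaS2-casein, 5 probes between 3.05 and 3.27. LALBA, the alpha-lactalbumin that turns galactosyltransferase into lactose synthase, had 3 probes between 3.02 and 3.87. None of these 14 probes was well above background on either array.

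CSN3, the kappa-casein that stabilises the micelle, had 1 of 2 probes detected, at 4.58 and 5.59; the other read 3.08 and 5.75 and passed in control 2 only. PAEP, the gene of beta-lactoglobulin, had 1 of 3 probes detected, at 8.95 and 8.44 (percentile 48.8), while the other 2 were at or below 3.93. With the median probe in place of the brightest PAEP fell to percentile 17.2 and the list to 13.6.

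CSN2, the beta-casein gene, was read at percentile 74.3 by 2 of its 5 probes while the other 3 were at background. The 2 probes in the coding part, shown here because they were dark, are the following.
CSN2, chr6:88331197-88332577, minus strand: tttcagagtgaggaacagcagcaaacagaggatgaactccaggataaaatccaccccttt
CSN2, chr6:88330955-88331014, minus strand: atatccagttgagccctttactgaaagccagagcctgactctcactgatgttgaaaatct
The first read 3.59 and 3.21 and the second 3.2 and 5.12, and neither was well above background on either array. Toward the 3′ end, a pair of probes that overlap by 53 bases was bright, with 11.32 and 10.73 for the upstream one and 12.35 and 11.72 for the downstream one. Within the overlap they differ by 1 substitution, A39G, counted from 1 at the 5′ end of the upstream probe, whose base is given first. Both were placed over an interrupted interval (the downstream one over chr6:88329317-88330106).

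The last CSN2 probe, at chr6:88329295-88329354, shares its first 38 bases with the end of the downstream bright probe and was dark, with 3.14 and 3.21. It was well above background on neither array, so no fold is given between these probes, which are identical over 38 of 60 bases. The parts in which they differ are shown with 8 bases of the shared stretch in capitals, its start in the bright probe and its end in the dark one.
CSN2, first 30 bases of the bright probe: aatgccccctcctcacttttgaATTGACTG
CSN2, last 30 bases of the dark probe: TCAATCCTtgcatcatgttactaagataat
The 22 bases before the capitals in the bright probe were held by the 2 bright CSN2 probes and no other probe on the array, and the 22 bases after the capitals in the dark probe by that probe alone. Over the array, 853 pairs of probes of 1 gene (756 genes) shared at least 30 bases with at least 1 of the pair detected on both controls. Their median absolute difference was 0.33 on the log2 scale and the 90th percentile 1.24. The CSN2 pair is 1 of the 853, and its difference has no exact size because the dark probe was at background. What the 2 bright probes hybridised to was not tested. The median probe of CSN2 put the gene at percentile 24.4, and the mean of its probes at 42.9.

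**Figure D4:**
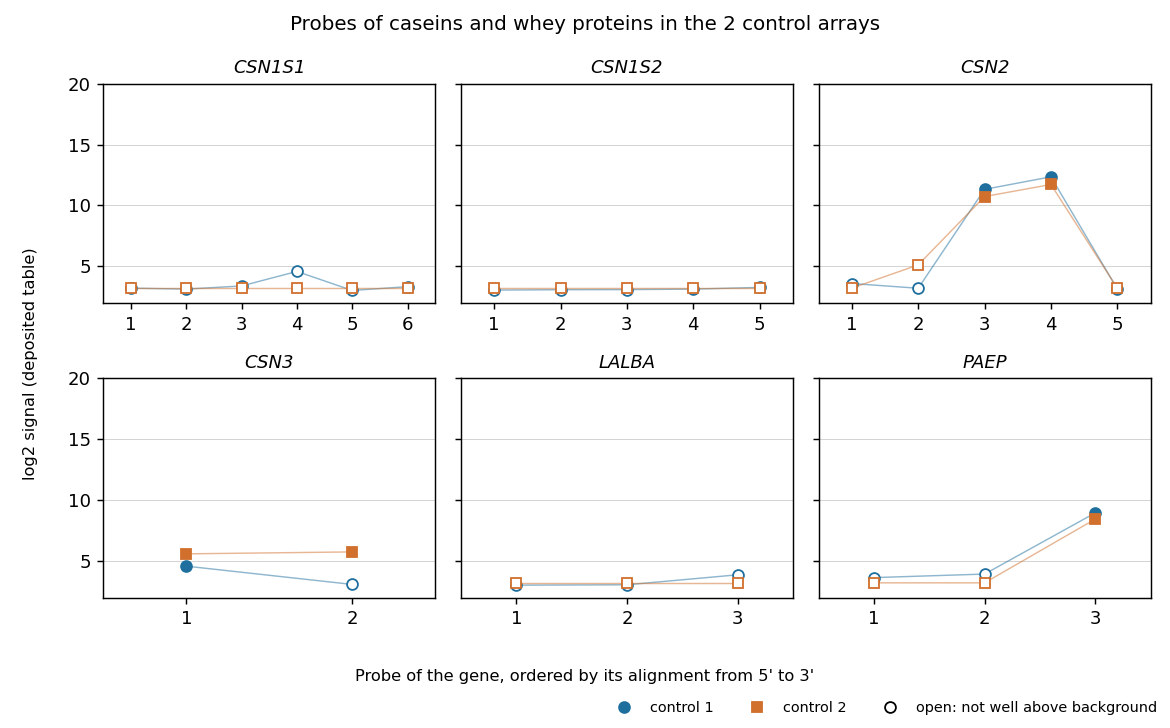
Log2 signal (y axis) of every probe of the 4 casein and 2 whey protein genes, ordered by alignment from 5′ to 3′ (x axis), with circles for control 1, squares for control 2 and open symbols for values not well above background. All probes of CSN1S1, CSN1S2 and LALBA lie at or below 4.58, and the 2 filled CSN2 probes lie between 10.73 and 12.35 beside 3 open ones.

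Genes of lactogenic hormone signalling, a list of receptors, effectors, inhibitors and transcription factors, were divided. Of 20 lactogenic genes 13 were detected, close to the share of all genes, and their median percentile was 52.9. NFIB (13.09 and 13.64), GATA3 (13.21 and 12.91), the glucocorticoid receptor NR3C1 (12.48 and 12.33) and TFAP2C (11.51 and 12.11) were the brightest detected members. The hormone receptors ESR1 (4 probes, none above 4.36), PGR (3 probes, none above 5.05) and PRLR (2 probes, none above 3.61) were well above background on neither array. The growth hormone receptor GHR read 4.56 and 4.89 and passed in control 1 only. The prolactin effectors STAT5A (8.50 and 7.09, 1 of 3 probes) and STAT5B (10.45 and 9.88, its 1 probe) were detected; they were named for their role after their values were seen. SOCS3, a feedback inhibitor of cytokine signals, passed in control 1 only (4.99 and 4.11).

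Proteins of the milk fat globule and of milk secretion gave 12 detected genes of 21 (57.1%, against 68.6% of all genes), with a median percentile of 50.8. SPP1, osteopontin, a phosphoprotein abundant in milk, was at percentile 98.7 on 1 probe (16.28 and 17.24). PTHLH, the parathyroid hormone-related protein that moves calcium into milk (13.59 and 14.38), FABP3, a fatty acid carrier (13.29 and 13.49), and XDH, the xanthine oxidoreductase of the globule membrane (13.31 and 13.26), followed. LPL, the lipase that frees fatty acids from blood lipids (3.18 and 3.21), SLC34A2 (3.14 and 3.21), FOLR1 (3.48 and 3.21) and GLYCAM1 (3.72 and 3.79) were at background.

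Sugar supply genes were high. All 9 measured genes of the lactose supply list were detected, 8 of them in the top 25%, with a median percentile of 89.7. HK1, a hexokinase (15.82 and 15.48), B4GALT1, the galactosyltransferase that forms lactose when paired with alpha-lactalbumin (14.19 and 15.13), GALT (14.65 and 13.79) and the glucose transporter SLC2A1 (14.44 and 13.60) led. SLC35A2, which carries UDP-galactose into the Golgi, was the lowest at 12.07 and 11.80. These genes serve glycosylation and energy supply in all cells, so their signal is not specific to milk.

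Lipid synthesis genes were mostly detected. Of 29 genes of fatty acid and triglyceride synthesis 23 were detected, at a median percentile of 55.7. FASN, fatty acid synthase (16.55 and 16.65), the elongase ELOVL1 (15.77 and 15.52), the desaturase SCD (14.45 and 15.25) and GPAT4 (14.85 and 14.42) were bright by their brightest probes. The 3′-most detected probe exceeded the 5′-most by 9.2 on the log2 scale in FASN and by 5.4 in ELOVL1. CD36, a fatty acid transporter (3.34 and 4.36), and LPL were at background; THRSP (3.25 and 6.39) and LPIN1 (5.12 and 5.46), each a regulator of milk fat synthesis, were not detected on both arrays. All 23 genes of cholesterol synthesis were detected, 15 of them in the top 25% (median percentile 83.1), with FDPS (15.97 and 15.26), SREBF2 (15.08 and 15.02) and SQLE (15.13 and 14.77) among the brightest.

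Genes that every cell uses filled the top of the ranking. All 78 measured cytosolic ribosomal proteins were detected and in the top 25%; their median percentile was 99.6, and RPL22 was the lowest at percentile 97.3. Of 9 elongation factor genes 8 were detected: EEF1A1 read 18.24 and 18.54, EEF2 18.12 and 18.08, EIF5A 17.83 and 17.54, and EEF1B2 17.38 and 17.49. EEF1D, the exchange factor subunit that the study's shRNAs target, read 17.65 and 17.10 with 4 of 4 probes detected, at percentile 99.2; it was named for its place in the study. EEF1A2, the form of muscle and nerve, was the member not detected on both (9.13 and 3.21). The 77 mitochondrial ribosomal genes were all detected too, at a median percentile of 85.8.

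Of 26 cytoskeletal genes all were detected with more than 50% of their probes (median percentile 98.9); MYL6 (18.76 and 18.24) was the brightest after the thymosins and actins already given, and MYL12B (9.27 and 9.89) the dimmest. Glycolysis had 20 of 21 genes detected (median percentile 96.1), with GAPDH at 18.40 and 18.32, ALDOA at 17.99 and 17.71 and TPI1 at 17.64 and 17.34. LDHC, the testis form of lactate dehydrogenase, was the exception (3.39 and 5.57). The nuclear genes of oxidative phosphorylation were detected in 42 of 42 cases, all in the top 25% (96.8), from ATP5F1B (17.62 and 17.54) to SDHB (12.61 and 12.67).

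Proteasome subunits were detected in 31 of 31 cases (95.3), with PSMB7 (16.89 and 16.75) first and PSMD12 (11.33 and 11.68) last. All 20 chaperones were in the top 25% (97.0): the small heat shock protein HSPB1 read 17.99 and 17.62, HSP90AB1 17.67 and 17.51, calreticulin, CALR, 17.82 and 17.20, and P4HB 17.54 and 17.19.

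Cell cycle genes gave signal in both controls, though cell division itself was not measured. MKI67, TOP2A and MCM2 were on the list but could not be measured. All 29 measured cell cycle genes were detected, 28 of them with more than 50% of their probes, though only 10 were in the top 25% and the median percentile was 68.0. The replication genes MCM5 (15.67 and 14.63), RRM1 (14.43 and 14.45), PLK1, a mitotic kinase (14.41 and 13.89), and MCM4 (14.30 and 13.94) led. CDC6 (6.33 and 6.56) and CCNE2 (6.99 and 8.54), which act at the start of replication, were the dimmest. Inhibitors of the cyclin-dependent kinases were present at the same time, with 7 of 7 detected. CDKN1A, the p21 protein that halts the cycle, was at percentile 98.8 (16.79 and 16.96), CDKN2B read 12.67 and 12.50, and CDKN1C was the lowest at 7.16 and 7.34.

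Growth factor genes ranged from the top of the ranking to background. Of 32 genes 25 were detected and 13 were in the top 25% (median percentile 64.1). The insulin-like growth factor binding proteins IGFBP6 (18.14 and 18.06) and IGFBP7 (17.24 and 17.56) stood highest, followed by FGF2 (15.04 and 14.94) and its receptor FGFR1 (14.70 and 15.08). The ligands IGF1 (3.90 and 4.84), HGF (4.28 and 3.21), FGF7 (3.06 and 4.42) and FGF10 (3.01 and 4.20) were well above background on neither array. All 7 genes of the list that were not detected on both failed on both.

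Defence genes were scattered. WFDC2, a protease inhibitor of secretory epithelia, was at percentile 99.2 on 1 probe (17.29 and 17.43). The list of 27, however, had 18 detected (66.7%, against 68.6% of all genes) and a median of 35.8. S100A12 read 10.82 and 12.70 and the milk iron-binding protein LTF, lactoferrin, 10.96 and 10.99. The cathelicidins CATHL1 (3.59 and 3.21) and CATHL2 (4.43 and 4.12) and the defensin DEFB5 (3.54 and 3.21) were at background. Among 33 chemokines and cytokines 19 were detected (57.6%), at a median percentile of 39.1. CXCL16 (15.28 and 15.44), CCL5 (13.16 and 13.94), the interleukin-1 antagonist IL1RN (13.42 and 13.23) and CXCL3 (12.27 and 13.80) were the brightest. IL17A, CSF3, IL15 and CXCL11 gave no value above 3.21. Of 10 toll-like receptor genes 6 were detected (60.0%), so both of these lists were below the share of all genes. TLR2 read 15.98 and 16.01 on the brightest of 2 detected probes of 4, and TLR1, TLR8 and TLR10 were at background.

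Interferon-stimulated genes were present, and the labels name no interferon treatment. Of 25 measured, 21 were detected and 8 were in the top 25% (median percentile 59.1). IRF7, a transcription factor of the interferon response, read 15.11 and 15.28, OAS1Y 13.79 and 14.91, IFI6 13.83 and 14.38, and BST2, tetherin, 13.62 and 14.28. OAS1X, OAS2, IFIT1 and IFIT3 were at background. Antigen presentation was led by class I: BOLA read 16.90 and 17.37 with all 12 probes detected, its light chain B2M 16.50 and 17.17, BOLA-NC1 15.01 and 15.55, and JSP.1 15.10 and 15.07. BOLA genes are near copies of one another and can share signal. CIITA, the switch of the class II genes, was not detected on both arrays (6.56 and 4.54), unlike the other 16 of 17 genes.

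Some markers of other cell types and tissues were detected, many of them by only some of their probes. The 8 lists of leukocytes, endothelium, liver, muscle, neurons, testis and oocyte, red blood cells and adipocytes together held 141 genes, of which 62 (44.0%) were detected by the rule of 1 probe, against 68.6% of all genes, and 30 (21.3%) with more than 50% of the probes, against 59.3%. Among their 51 detected genes with more than 1 probe, 32 (62.7%) passed with 50% or fewer of their probes. That share was 13.3% (11 of 83 genes) in 8 epithelial lists and 19.1% (1581 of 8264) over all genes.

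Of 27 leukocyte genes 15 were detected, but 6 with more than 50% of their probes. CD4, the coreceptor of helper T cells, read 13.40 and 12.68 on its 3′-most probe and between 3.12 and 3.52 on the other 4. PTPRC, the pan-leukocyte antigen CD45, read 12.86 and 12.10 on 1 of 4 probes, and CD3D, a chain of the T cell receptor complex, 12.28 and 12.27 on 1 of 3. LYZ, lysozyme, read 12.40 and 12.16 on 1 of 2. LCP1, an actin-bundling protein of blood cells that many cultured cells also express, was detected on both of its probes (13.90 and 13.11), and AIF1 on its 1 probe (11.62 and 10.82). CD3E, CD5, CD8A and CD163 were at background with no value above 3.82. What the single bright probes measured was not tested.

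Of 18 endothelial genes 6 were detected, led by ENG (12.44 and 12.09), EGFL7 (10.22 and 10.04), ERG (8.26 and 9.41) and VWF (8.92 and 8.20, 2 of 7 probes); the defining CDH5, PECAM1, KDR and TEK were at background. Of 18 liver genes 7 were detected, led by the transaminase TAT (13.28 and 12.77, 4 of 4 probes), APOA2 (11.52 and 10.77) and APOA1 (10.57 and 8.52), and ALB, albumin, was at background on all 4 probes.

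Muscle genes had 10 of 18 detected (55.6%, against 68.6% of all genes). Desmin, DES, read 14.10 and 13.25 on 1 probe and between 3.16 and 6.41 on the other 3. ACTA1, the skeletal muscle actin, read 11.67 and 11.18 on the brightest of 4 detected probes. MYOD1 read 11.45 and 11.07, MB 8.90 and 8.0 and MYL2 8.61 and 7.21; MYH2 and TNNI2 were at background. Of 18 neural genes 9 were detected, led by the tubulin TUBB3, which dividing epithelial cells can also express (13.81 and 12.14), SLC17A7 (13.18 and 12.55, 1 of 2 probes) and the neurofilament NEFH (12.08 and 10.97, 3 of 4). Red blood cell genes had 3 of 10 detected, with HBA at 13.88 and 12.67 on 1 probe and HBB at background (3.41 and 3.21). Adipocyte genes had 7 of 15, of which CEBPA (15.24 in both controls) and PNPLA2 (12.96 and 13.01) also act outside fat. Testis and oocyte genes had 5 of 17, ODF1 being the brightest (10.11 and 9.61, 1 probe).

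Genes with no expected source gave a measure of background. A cow carries no Y chromosome, and of 7 Y chromosome genes measured SRY, DDX3Y, EIF1AY, EIF2S3Y, TSPY and USP9Y were at background, none above 4.41. ZFY was the exception, with 8.50 and 8.46 on 1 probe. That probe is placed by the array's design on chromosome X, where the gene has a close relative. Olfactory receptors, which serve the nose, were detected in 17 of 503 cases (3.38%), 417 were well above background on neither array, and none was in the top 25%. The pregnancy-associated glycoproteins of the placenta were detected in 2 of 19 cases. By contrast, hair and hard keratins were detected in 6 of 24 cases, a share still below the 68.6% of all genes. KRT86 read 15.48 and 14.95 on its brighter probe and 4.74 and 5.99 on the other. KRT75 read 14.05 and 13.51 on its brighter probe and 6.49 and 5.8 on the other. Both probes of each gene were detected, but the high values rest on 1 probe of each. KRT81 (11.83 and 11.41) and KRT35 (11.12 and 9.87) had 1 probe each, and these keratins are close relatives that can share signal. Squamous differentiation genes were detected in 10 of 19 cases (52.6%), also below the share of all genes. The brightest were the protease inhibitor CSTA at 13.97 and 13.65, involucrin, IVL, at 12.82 and 12.87, SBSN at 9.39 and 8.38 and KRT3 at 8.14 and 7.55. FLG, DSC1, DSG1 and KRT12 were at background.

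The 2 controls, which should be alike, were set against each other gene by gene. With 1 array on each side there is no test. They lay on different slides, control 1 with the EEF1D-1893 arrays and control 2 with the EEF1D-1357 arrays, so slide and sample cannot be told apart. Over the 11605 detected genes the log2 difference had an SD of 0.72 and a median size of 0.42. In 1538 genes (13.3%) it was larger than 2-fold: 810 (6.98%) were higher in control 1 and 728 (6.27%) in control 2. Over 8-fold differences were seen in 19 genes in each direction.

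Several collagen and matrix genes were among those furthest apart, with higher values in control 2. COL1A2, a chain of collagen I, read 7.19 in control 1 and 11.64 in control 2, which is 21.9-fold, and 5 of the 5 probes seen on at least 1 array had that order. MGP, the matrix Gla protein, read 5.87 and 9.60, with 5 of 5 probes in that order and all 5 over 2-fold. COL6A1 read 7.18 and 11.35, but only 1 of its 2 probes seen had that order. By their brightest probes COL1A1 (10.62 and 9.94), COL3A1 (10.47 and 9.73), COL6A2 (7.88 and 7.31) and LOX (11.29 and 8.71) read higher in control 1. Every other probe of COL3A1 read higher in control 2, with 8.18 and 9.98 on its second brightest. The probes of COL1A1 were split, with 5.5 and 9.36 on the 3′-most. LOX has 1 probe, and the detected probes of COL6A2 all read higher in control 1. Of 24 detected collagen genes 9 were over 2-fold higher in control 2 and 2 in control 1, against 6.27% and 6.98% of all detected genes. LUM, lumican, was not well above background in control 1 and read 3.47 and 8.68. LUM and the 4 genes higher in control 1 by their brightest probes were named after their values were seen. Over the fibroblast list, 3 of 15 detected genes were over 2-fold higher in control 2 and none in control 1. Its median difference (control 1 minus control 2) was 0.02 by the brightest probes and -0.52 by the mean of each gene's probes. The median thus had no settled direction. Among genes of the list detected on both arrays, however, none was over 2-fold higher in control 1 in any setting tried, and 3 to 5 were in control 2. FBLN1 (7.63 and 3.21) and CXCL12 (5.12 and 3.21), also on the list, passed in control 1 only and read higher there. They too were named after their values were seen.

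The other genes of that direction had no common role. LSAMP (3.12 and 9.53) and METTL4 (3.08 and 9.16) were brightest on probes that were not well above background in control 1, so no fold is given. PTPRN (5.72 and 10.26), AKAP7 (5.34 and 9.47, 3 of 3 probes), TMEM74 (5.23 and 9.09), TNFSF18 (7.76 and 11.58, 2 of 2) and ACSM1 (6.02 and 9.78, 2 of 2) made up the 10.

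In the opposite direction the largest difference belonged to C29H11orf86, with 13.50 in control 1 and 7.02 in control 2 on its 1 probe, 89.3-fold. TNNT1, a slow muscle troponin, read 11.48 and 6.92 with 3 of 3 probes over 2-fold, and NES, nestin, an intermediate filament protein of progenitor cells, 13.19 and 9.40 with 3 of 3. LGR5, a stem cell receptor of the Wnt pathway, read 12.48 and 8.76 on 1 probe. ZMIZ1 (13.37 and 9.22), RARRES1 (11.57 and 7.95), GIPC2 (10.33 and 6.80), the neurofilament NEFL (9.05 and 5.55), the protease CTSL (11.78 and 8.42) and ENTPD1 (10.58 and 7.25) completed the 10.

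Luminal and basal markers more than 2-fold apart lay mostly on opposite sides. Of 26 detected luminal markers 6 were over 2-fold higher in control 1 and none in control 2. Over all detected genes these shares were 6.98% and 6.27%. Besides KRT19 they were MUC1, the mucin of the luminal surface (13.62 and 10.84, with all 5 probes higher in control 1), ELF3 (15.36 and 14.19), ERBB3 (12.82 and 11.81), OVOL1 (10.29 and 8.66) and FOXA1 (8.79 and 7.71). Of 28 detected basal markers 7 were over 2-fold higher in control 2 and 2 in control 1. The 7 were the bright probe of KRT14, ACTA2, ITGB1, COL17A1, MYLK (9.81 and 11.41), SNAI2 (9.21 and 10.31) and TP63; the other 2 were CNN1 (10.87 and 8.96) and NGFR (9.13 and 7.66). The genes of both groups were named after their values were seen. KRT8, KRT18, KRT5 and EPCAM (15.18 and 16.04) did not pass 2-fold, and the median difference (control 1 minus control 2) was 0.28 over the luminal and -0.25 over the basal list, against 0.06 over all detected genes. The basal median was -0.05 by the scanner's signals, with 13 genes higher in control 1 and 15 in control 2, and -0.07 by the median probe, so over the whole basal list the difference was near 0 in those settings. With the mean of a gene's probes in place of the brightest the luminal counts were 4 and 0, and the basal counts were 0 in control 1 and 5 in control 2.

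**Figure D5:**
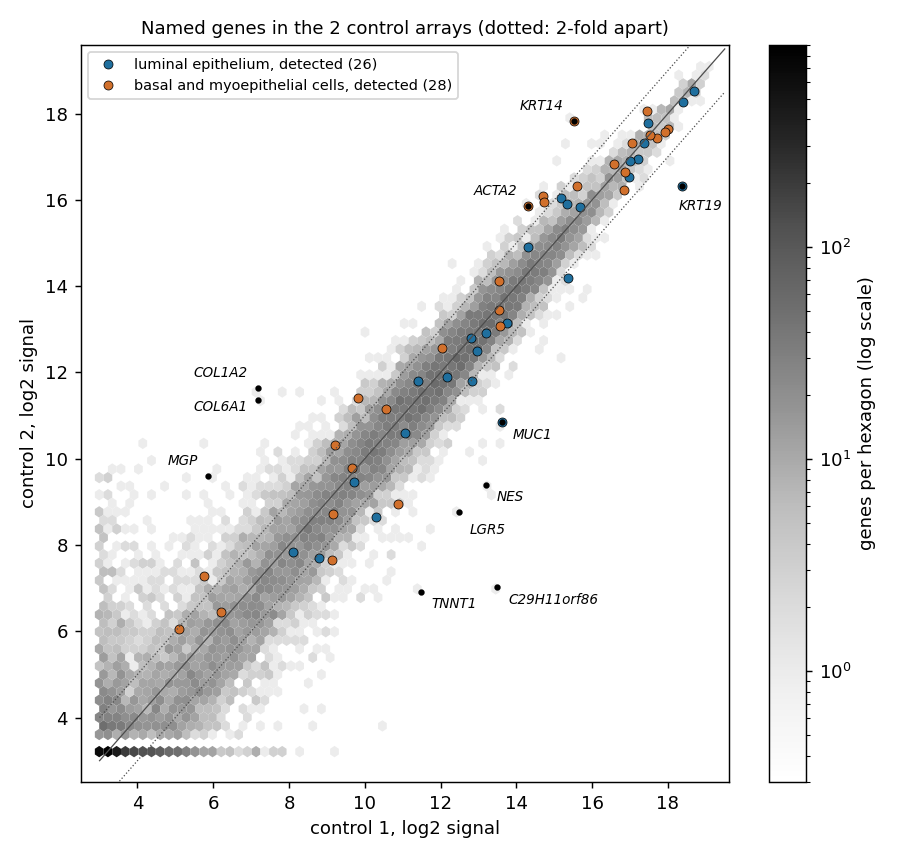
Log2 signal of each named gene in control 1 (x axis) and control 2 (y axis); grey hexagons count genes on a log scale, coloured points are the detected luminal (26) and basal (28) markers, and dotted lines mark 2-fold. KRT19 and MUC1 lie below the lines and KRT14 and ACTA2 above; COL1A2, COL6A1 and MGP are far above and C29H11orf86 far below.

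Interferon-stimulated genes also leaned toward control 2. Of 21 detected, 19 were higher in control 2 and 2 in control 1. Their median difference (control 1 minus control 2) was -0.71, against 0.06 over all detected genes. Only 3 passed 2-fold in that direction and 1 in the other, and by the scanner's own signals 1 passed in each. In cholesterol synthesis 18 of 23 detected genes were higher in control 1 (median 0.48, 3 over 2-fold). Over all detected genes 6.98% were over 2-fold higher in control 1 and 6.27% in control 2. The share of all genes that were higher in 1 control by any amount is not given here. Among histone genes 14 of 23 detected were over 2-fold higher in control 1 and 1 in control 2, with a median difference of 1.12; histone probes can be shared between near-identical copies. Ribosomal proteins (median -0.05), oxidative phosphorylation (-0.14), chaperones (0.01) and desmosomes with adherens junctions (-0.01) were near 0.

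Lists of other cell types differed between the controls to varying degrees. The summed signal of the leukocyte list was 50958 in control 1 and 33619 in control 2, and that of the neural list 30840 and 13271. The median difference (control 1 minus control 2) over detected genes was 1.21 for red blood cells, 0.91 for neurons and glia and 0.79 for leukocytes. It was 0.78 each for liver and muscle, 0.40 for testis and oocyte, 0.27 for endothelium and 0.09 for adipocytes. For fibroblasts it was 0.02 by the brightest probes, but -0.52 by the mean of each gene's probes. Genes with no expected source could lean the same way. The median was 0.99 over 17 detected olfactory receptors, of which 8 were over 2-fold higher in control 1 and 2 in control 2. It was 1.61 for the 2 detected pregnancy-associated glycoproteins and 0.04 for ZFY, against 0.06 over all detected genes. The part of other cell types in the remaining differences was not tested. With 1 array in each place, slide, culture and handling cannot be told apart as sources of these differences.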

How the data were processed

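Total RNA of 2 control samples was hybridised to 1-colour Agilent arrays with 43653 gene probes, of the series' 8 arrays. Spot intensities and the flags for signal well above background were written by Agilent Feature Extraction 10.7.3.1 per the file headers, whereas the submitters' processing notes name version 9.1. The authors deposited a table of log2 values whose normalization is not given in the sources used here. Each column correlated with log2 of that array's processed intensity at 0.998 (control 1) and 1.000 (control 2), both columns had a median of 7.56, and centring beyond that is unknown. The 75th percentile of intensity was 1265 and 1842; the number of arrays, 2, limits the precision. Per-sample columns without a sample numbered 0.

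Probes were named through RefSeq's table for ARS-UCD2.0, used for names only, by accession (26628), symbol (6478), other accession (529), gene ID (532) or older symbol (161); 563 kept the array design's symbol and 8762 stayed unnamed. Probe positions are those of the array's design on Btau_3.1, per the file headers, and probe sequences come from the same files. Control spots were left out, and the brightest probe by mean log2 value stood for a gene. The control arrays were set apart by their labels, but the choice to describe them, and the gene lists, were made with earlier results of these data known. The text names every probe of 7 markers, all caseins, whey proteins and epithelial keratins, the 30 brightest genes, the 4 brightest detected and up to 4 lowest members of other lists, up to 6 detected members of lists of other tissues, and the 10 genes furthest apart between the controls in each direction. Other genes were named after their values were seen. Some genes that the rule selects are not reported here. No test was made within 1 group of 2 arrays, and fold differences of 1 array against 1 have no replicate check. Alternatives were the scanner signal scaled to its 75th percentile, normexp background correction (offset 50) with quantile normalization, the mean or median of a gene's probes, other detection rules, the file's own names and each control alone. Ranking and detection were tested on simulated data in which the brightest probe held the gene's level by design. Genes with a probe brighter than their level were not simulated, so that case was not tested. Software was R 4.3.3, limma 3.58.1, Python 3.11.15, pandas 2.3.3 and numpy 2.4.6.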

Additional observations from a re-analysis of the deposited data

How the results depend on the processing

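No paired analysis was possible because only 1 group was described and no test was made. The detected count of 11605 ranged from 10024 to 13237 over the detection rules tried, and from 11901 to 12975 with 1 control left out. The median probe of a gene and the rule of more than 50% of the probes were chosen after seeing the data. With the median probe, the median percentile of the caseins and whey proteins was 13.6, of the lactogenic genes 46.6, of basal markers 80.7 and of mesenchymal genes 60.5. With the mean of the probes it was 45.8 for lactogenic genes, 78.4 for basal markers and 60.1 for mesenchymal genes, and with the file's own names 50.1 for lactogenic and 55.1 for mesenchymal genes. With 1 control left out the medians ranged from 51.8 to 52.2 (lactogenic), 81.8 to 86.9 (luminal), 86.6 to 91.2 (basal) and 59.8 to 61.7 (mesenchymal). The range between probes of a gene was 2.97 from the scanner signal, 2.57 after normexp, 3.03 with the file's names and 3.05 to 3.06 with 1 control. Genes over 2-fold apart between the controls numbered 841 after normexp and 3087 over all named genes, where genes below background enter. The difference of PTPRN turned to 0.32 with the median probe; the cause was not tested. Values near background have no order, and 2 arrays limit every comparison between the controls.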

Other observations

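Of the 43653 probes 8762 could not be tied to a named gene, and 4325 of these (49.4%) were well above background on both controls, against 67.2% of the named probes. At or above the signal of the 99th percentile of named genes stood 32 unnamed probes. The brightest were A_73_P106806, with log2 signals of 18.78 in control 1 and 18.83 in control 2, and A_73_P100216, with 18.56 and 18.65. These probes entered no ranking of genes.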
